A study of Mus musculus with 8 samples.

Results

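Gcnf-deficient embryonic stem cells (ESCs) and the primordial germ cells (PGCs) derived from them by day 15 of culture were compared, 1 array on each side, out of 8 arrays in the study. The 2 arrays, ESC-- and D15--, were taken by their labels. A gene was counted when its probe had a detection p under 0.01, against the negative control beads of the array, on at least 1 of the 2 arrays, which left 7892 genes of 16593 with a probe. The question behind the comparison was how far ESCs without the nuclear receptor Gcnf go toward germ cells in vitro. The remaining arrays were wt ESCs, wt day-12 and day-15 PGCs, Gcnf-deficient day-12 PGCs (1 array each) and 2 arrays of epiblast stem cells (EpiSCs), pluripotent lines that resemble the epiblast after implantation. Gcnf-deficient cells carry the Gcnf knockout on both alleles and wt cells do not, as the labels give it. By the study's text both the wt and the mutant ESC lines came from embryos carrying Oct4-GFP(ΔPE), a GFP reporter under Oct4 control without the proximal enhancer, and PGCs were sorted by it. The labels give the strain C57BL/6 for all arrays and name the cell type PGC even for the ESC and EpiSC arrays, so groups were taken from the titles.

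By the study's methods, ESCs grew on irradiated mouse embryonic fibroblasts with leukemia inhibitory factor, and differentiation ran on gelatin without either and with fetal serum added. Putative PGCs were then sorted for GFP, so any cell in which the reporter was on could enter the day-12 and day-15 samples. Whether the ESC arrays also came from sorted cells is not stated. The methods list reporter ESCs of both sexes and female Gcnf -/- ESCs, and do not tie a line to an array, so differences between genotypes and between lines cannot be told apart. With 1 array a side, no difference between the ESC-- and D15-- arrays has a replicate check, and none carries a p-value. In these bulk samples, fewer cells of a type and less RNA per cell cannot be told apart.

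PGCs are the founders of eggs and sperm. They arise from the epiblast under BMP signals, keep the pluripotency factors Oct4, Nanog and Sox2 active, switch on germline regulators such as Dppa3 and the Dazl family, and much later enter meiosis, for which Stra8, a gene induced by retinoic acid, is the gatekeeper. Gcnf (gene Nr6a1) is an orphan nuclear receptor that binds DNA at the sequence TCAAGGTCA and represses Oct4 when ESCs differentiate. Differentiating ESC cultures can also form extraembryonic endoderm, which lays down a basement membrane rich in collagen IV and laminin, or simple epithelium with keratins 8 and 18.

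The promoters of 4 genes are shown because those genes carry the main contrasts: the collagen IV pair, which was higher together at day 15, the skeletal actin gene Acta1, which appeared only after differentiation, and Stra8, which was lower. The windows run from 250 bases before to 50 bases after the start of each gene, 5′ to 3′ on the gene's strand, from RefSeq on GRCm38.p6. Col4a1 (chr8:11312777-11313076, minus strand) and Col4a2 (chr8:11312555-11312854, plus strand) are transcribed away from each other, and the capitals mark the 78 bases that both windows hold, read in opposite orientation.
Col4a1: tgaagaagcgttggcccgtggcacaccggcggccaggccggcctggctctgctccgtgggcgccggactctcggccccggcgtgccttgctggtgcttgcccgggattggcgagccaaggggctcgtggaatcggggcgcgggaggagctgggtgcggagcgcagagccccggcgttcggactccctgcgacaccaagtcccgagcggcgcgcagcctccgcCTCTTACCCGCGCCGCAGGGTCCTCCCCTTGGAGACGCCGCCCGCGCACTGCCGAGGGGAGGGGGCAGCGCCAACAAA
Col4a2: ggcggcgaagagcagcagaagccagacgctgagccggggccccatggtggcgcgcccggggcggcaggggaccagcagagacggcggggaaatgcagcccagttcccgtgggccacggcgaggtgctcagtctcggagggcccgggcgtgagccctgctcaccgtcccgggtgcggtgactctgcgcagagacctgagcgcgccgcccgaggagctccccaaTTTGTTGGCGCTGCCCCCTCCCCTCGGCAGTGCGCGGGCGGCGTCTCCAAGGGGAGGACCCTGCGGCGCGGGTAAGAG
Acta1 (chr8:123894726-123895025, minus strand) is shown with its CArG box, the binding sequence of serum response factor, in capitals.
Acta1: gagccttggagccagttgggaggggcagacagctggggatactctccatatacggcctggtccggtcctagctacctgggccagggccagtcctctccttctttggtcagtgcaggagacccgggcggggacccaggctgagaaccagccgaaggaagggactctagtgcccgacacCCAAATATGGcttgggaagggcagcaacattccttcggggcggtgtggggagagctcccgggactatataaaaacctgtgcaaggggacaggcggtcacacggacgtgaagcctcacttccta
Stra8 (chr6:34920698-34920997, plus strand) is shown with 2 copies of AGGTCA, the half-site of nuclear hormone receptors, in capitals.
Stra8: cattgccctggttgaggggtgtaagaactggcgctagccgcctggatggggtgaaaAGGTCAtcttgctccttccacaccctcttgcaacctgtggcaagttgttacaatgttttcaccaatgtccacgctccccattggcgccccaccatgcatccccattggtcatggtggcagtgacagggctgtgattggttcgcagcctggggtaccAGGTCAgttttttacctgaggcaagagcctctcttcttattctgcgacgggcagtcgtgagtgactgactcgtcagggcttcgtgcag

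The motifs were searched on both strands of these windows. The letters TCAAGGTCA, which contain AGGTCA, stood in 0 of the 189 windows found for the 245 genes over 4-fold higher at day 15 and in 0 of the 84 windows found for the 109 genes over 4-fold lower, against 0.354% of the 6492 windows of detected genes and 0.466% of the windows of all 27025 RefSeq genes. AGGTCA alone stood in 18.1% of all genes' windows, so it is frequent among promoters. The CArG box stood in 9 of the 189 windows of the higher genes (4.76%), those of Acta1, Actc1, Arrdc4, Gsto1, Igf2, Lurap1l, Myl3, Pdgfc and Robo1, and in 1.71% of the windows of detected genes. A match of letters is a description and not a binding site, and these windows hold no distal elements.

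Signals are given below as log2 values after background correction and quantile normalization over the 8 arrays. Both arrays were of like quality: 10590 probes (41.2%) were detected on ESC-- and 10654 (41.5%) on D15--, at median raw signals of 146.0 and 143.4. The lowest detected signal was 5.70 on ESC-- and 5.67 on D15--. Where the dimmer side was not detected, the fold is given as "at least", measured from that lowest detected signal. The EpiSC pair served as the yardstick of spread: over 10482 probes detected on at least 1 of the pair, the differences had an SD of 0.34, 198 probes (1.89%) differed over 2-fold and 10 over 4-fold, and among 9638 probes detected on both EpiSC arrays 0 differed over 4-fold.

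The ESC-- and D15-- arrays differed more widely, with an SD of 0.90 over 11439 probes. Over 4-fold differences numbered 333 higher at day 15 (2.91% of probes) and 172 lower (1.5%). Of the higher probes 109 were detected on both arrays and 224 on D15-- alone, and 148 of them kept over 4-fold when the undetected side was set to its bound. Of the lower probes 38 were detected on both arrays, 134 on ESC-- alone, and 52 kept over 4-fold at the bound. By gene, with the probe of the highest mean signal standing for each, 245 genes (3.1%) were over 4-fold higher and 109 (1.38%) over 4-fold lower, while 876 (11.1%) and 611 (7.74%) were over 2-fold higher and lower. These percentages are the background against which the counts in the gene lists are read, and those counts use the measured log2 values of both arrays, with the bound given where it matters. The limit falls in a dense part of the distribution, since 35 probes lay within 0.1 above it and 44 within 0.1 below it on the higher side, and 29 and 29 on the lower side.

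**Figure D1:**
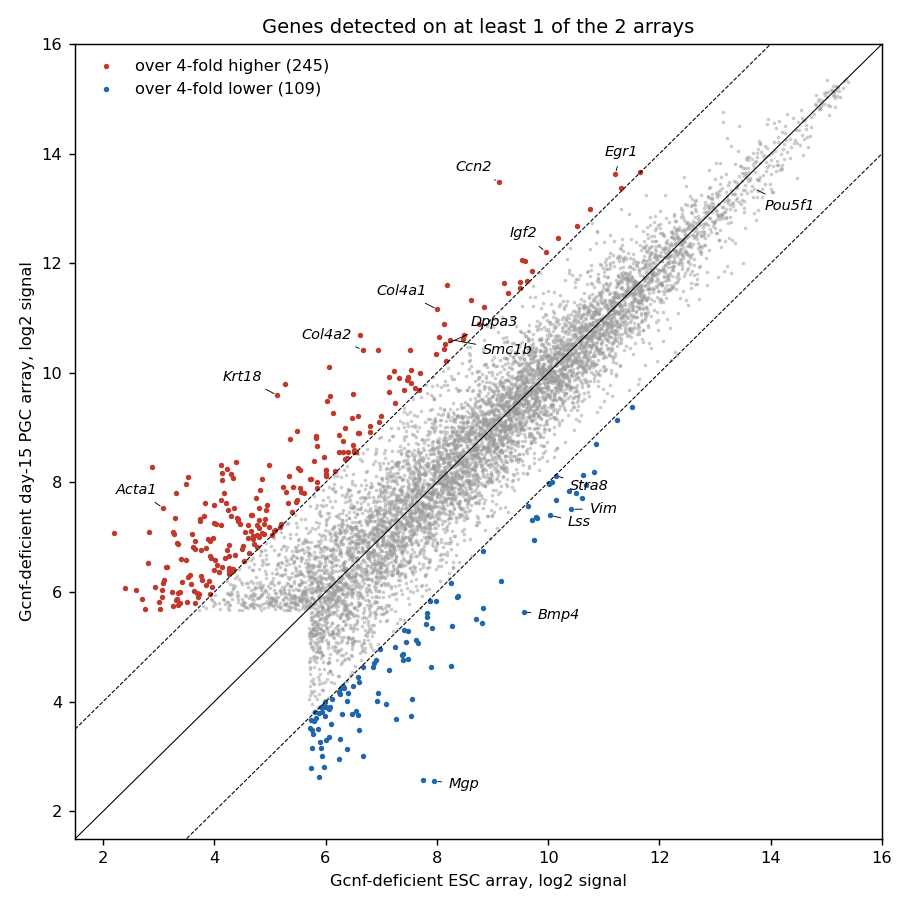
Each point is 1 of the 7892 genes detected on at least 1 of the 2 arrays, placed by its log2 signal in Gcnf-deficient ESCs (x axis) and Gcnf-deficient day-15 PGCs (y axis); the solid line marks equal signal and the dashed lines 4-fold differences. The 245 higher genes (red) and 109 lower genes (blue) lie outside the dashed lines, and Pou5f1 lies near the line of equal signal.

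The targeted gene was examined first. Nr6a1 read 11.03 in Gcnf-deficient ESCs, 9.94 at day 12 and 10.05 at day 15, against 9.64, 10.38 and 9.83 on the wt arrays in the same order and 12.46 and 12.31 in EpiSCs. Its signal was thus detected on all 3 Gcnf-deficient arrays, above the wt value in ESCs and at day 15 and below it at day 12. The position of this probe relative to the deleted part of the gene is not stated in the labels or methods. The gene therefore does not check the genotype labels, and the arrays are called by their labels throughout. Pou5f1, which encodes Oct4, read 13.70, 13.70 and 13.36 in Gcnf-deficient ESCs, day-12 and day-15 PGCs. The difference of -0.34 at day 15 was close to the yardstick SD of 0.34. For probes detected on both EpiSC arrays, as Pou5f1 was here on its 2 arrays, that SD was 0.26. The PGCs had also been sorted by a reporter under Oct4 control.

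Among the early germ cell genes Dppa3 and Ifitm1 were clearly higher at day 15. Dppa3, also called Stella, protects the maternal genome from demethylation after fertilization and marks PGCs. It read 8.15 in Gcnf-deficient ESCs, 10.28 at day 12 and 10.52 at day 15, a 5.15-fold difference, so most of the gap was present by day 12. Ifitm1, an interferon-induced membrane protein found on early PGCs, read 8.61, 10.92 and 11.32 (6.57-fold), while its other probes were not detected on either array. Of the 9 detected members of the PGC specification list, 3 were over 2-fold higher, 0 lower and 2 over 4-fold higher, with a median difference of 0.49, against 0.00 for all detected genes.

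The other members of that list differed less. Tfap2c, a transcription factor of PGC specification, was at 11.94, 12.20 and 12.32. Alpl, the tissue alkaline phosphatase used to stain PGCs, was at 10.17, 10.71 and 10.93, and Lin28a, which blocks the microRNA let-7, was at 10.64, 10.39 and 9.88. Nanos3, needed for the survival of migrating PGCs and chosen here after its values were seen, was not detected in ESCs and read 5.94 at day 15, only 1.18-fold above the lowest detected ESC signal. Prdm14, a regulator of PGC fate also named after its values were seen, read 5.54 (not detected), 6.96 and 5.84, and Prdm1, the factor that starts the PGC program, was not detected on either array. The differences over 4-fold in this list thus lay in 2 members, and the sample labelled as PGCs held Prdm14 and Nanos3 only near the lowest detected signal.

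The later germline was represented by few detected genes. In the gonadal germ cell and piRNA list, 10 of 16 members with a probe were detected, of which 3 were over 2-fold higher, 0 over 4-fold and 0 lower, with a median of 0.27. Dazl, an RNA-binding protein that licenses gonadal germ cells, read 9.25, 9.59 and 10.66 (2.66-fold), so its difference appeared after day 12. Tdrd12, a piRNA pathway helicase, read 9.58, 10.14 and 10.67. Ddx4, the germ cell helicase also called Vasa and named after its values were seen, read 6.12, 5.47 (not detected) and 6.39. The same step in wt cells gave a log2 difference of 2.60 for Dazl, from 10.64 to 13.25. That is a larger step than the one from 9.25 to 10.66 in Gcnf-deficient cells.

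Meiosis genes differed in both directions. Smc1b, a cohesin subunit specific to meiosis, read 8.24 in Gcnf-deficient ESCs, 10.30 at day 12 and 10.61 at day 15 (5.14-fold higher). Its partner Stag3 read 9.87, 10.84 and 11.18 (2.49-fold), and Hspa2, a heat shock protein of spermatocytes, read 8.60, 9.59 and 10.33 (3.32-fold). Stra8 was lower. It read 10.14 in Gcnf-deficient ESCs, 6.43 at day 12 and 8.12 at day 15, which was 4.03-fold below the ESC array and only just past the limit. Tex11, an X-linked gene of meiotic recombination named after its values were seen, read 8.91, 6.87 and 7.40. Of 11 detected members, 4 were over 2-fold higher and 2 lower, with a median of -0.10, close to that of all detected genes.

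The wt arrays showed another pattern for Stra8. There it read 7.47 in ESCs, 8.75 at day 12 and 10.42 at day 15, a difference of 2.94, so that the highest value of the Gcnf-deficient series was in ESCs and that of the wt series at day 15. The difference between the 2 changes (the interaction), with days 12 and 15 pooled, was -4.97 ± 1.38 (SE), with a limma adjusted p of 0.639. Dppa3 and Smc1b were higher by 4.32 and 4.97 on the wt arrays, against 2.37 and 2.36 on the Gcnf-deficient ones, and for these genes the difference of changes had adjusted p-values of 0.638 and 0.917.

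**Figure D2:**
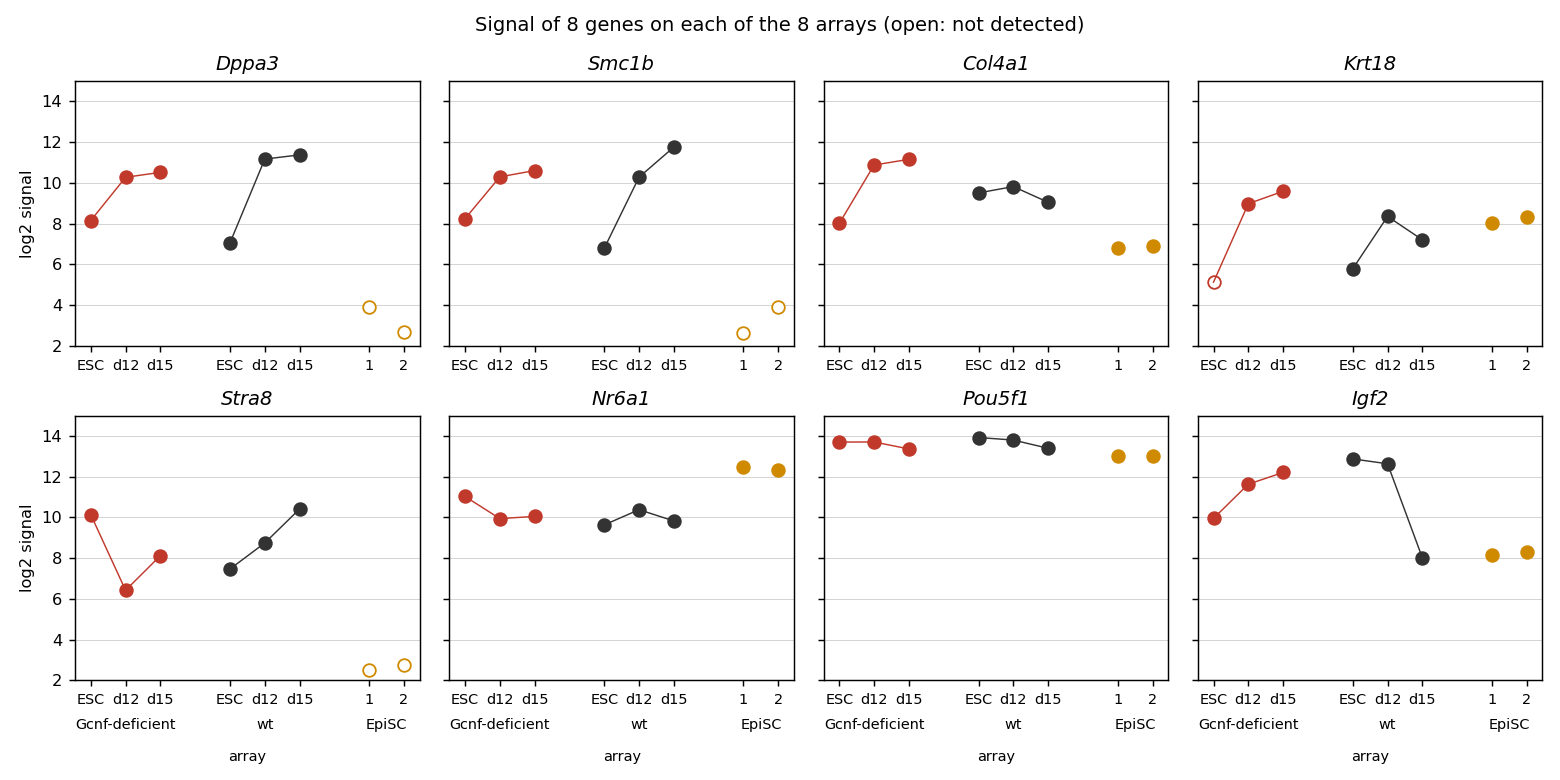
Log2 signal (y axis) of 8 genes on each of the 8 arrays: Gcnf-deficient (red) and wt (black) ESCs, day-12 (d12) and day-15 (d15) PGCs, and the EpiSC pair (orange); open circles are signals that were not detected. Dppa3 and Smc1b are higher at day 15 than in ESCs in both genotypes, Col4a1 is higher only on the Gcnf-deficient side, and Stra8 and Igf2 run in opposite directions.

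The pluripotency network was almost level. Of 19 detected members, 18 lay within 2-fold, 1 (Klf2, at 11.82, 12.76 and 12.85) was just over 2-fold higher, and the median difference was 0.30. Nanog, which sustains self-renewal, read 12.90, 13.67 and 13.70, and Sox2, the partner of Oct4, read 10.69, 11.16 and 11.10. Klf2, Nanog and Sox2 are named after their values were seen. Dppa5a, Dppa4 and Trim28 differed by 0.33, 0.30 and 0.06. In the primed epiblast list, Dnmt3b, a de novo DNA methyltransferase, was lower at day 15 (13.06 to 11.74) whereas Otx2, a homeobox factor of the epiblast, read 11.70 on both arrays. In this list 3 of 7 detected members were over 2-fold higher, among them Nodal (8.96, 10.77 and 10.93), and 2 were lower.

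About as many basement membrane genes were higher at day 15 as were level, with the collagen IV pair in front. Col4a1 and Col4a2 encode the 2 chains of the main collagen IV trimer from the shared promoter printed above. Col4a1 read 8.01 in Gcnf-deficient ESCs, 10.88 at day 12 and 11.16 at day 15 (8.86-fold). Col4a2 read 6.67, 9.71 and 10.42 (13.5-fold). For both genes most of the difference was present by day 12. Lamb1, the laminin beta chain of the same sheet, was not detected in ESCs and read 7.67 and 8.12 at days 12 and 15 (at least 5.32-fold). Col18a1, which encodes a basement membrane collagen that releases endostatin, read 11.30, 13.04 and 13.38 (4.22-fold), and the proteoglycan perlecan (Hspg2) read 9.11, 10.35 and 10.74 (3.1-fold).

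Of the 15 detected basement membrane members, 7 were over 2-fold higher and 4 over 4-fold higher, against 11.1% and 3.1% of all detected genes, and 1 was over 2-fold lower. That one was Serpinh1, the collagen chaperone, named because the count is small, at 7.50 in ESCs and 5.78 at day 15. The median was 0.94. In wt cells Col4a1 differed by -0.46 and Col4a2 by -1.21 between ESCs and day 15, with a list median of 0.22. The difference between the genotypes' changes was 3.08 ± 0.67 (SE) for Col4a1 and 4.45 ± 0.66 for Col4a2, with limma adjusted p-values of 0.565 and 0.465. Neither passed the threshold. The wt ESC array read higher for both collagens (9.51 and 9.46) than the Gcnf-deficient one. It also read higher for fibroblast genes such as Bgn (12.19 against 9.16), and the part of fibroblast RNA in these differences was not tested.

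Simple keratins were also higher. Krt18 was not detected in Gcnf-deficient ESCs (5.13) and read 8.98 at day 12 and 9.59 at day 15 (at least 14.8-fold). Its filament partner Krt8 read 6.94, 10.28 and 10.42 (11.1-fold). Gata3, a transcription factor of trophoblast, was detected at days 12 and 15 (6.21 and 6.97) and not in ESCs, at least 2.41-fold. On the wt arrays Krt18 read 5.79, 8.36 and 7.21, a log2 difference of 1.42 at day 15. Krt8 read 8.04, 10.80 and 8.30 there, so both wt keratins were highest at day 12. Gata3 was not detected in wt ESCs and read 6.32 and 6.74 in wt PGCs (at least 1.96-fold at day 15). For Krt18 the difference between the genotypes' changes was 2.16 ± 0.86 (SE) in log2, with a limma adjusted p of 0.836. Of the 12 detected members of the keratin and trophoblast list, 6 were over 2-fold higher and 1 lower, with a median of 1.33 (0.95 with undetected sides at their bounds). All 12 were detected on D15-- and 8 of them on ESC--, and the median over the 21 members with a probe was 0.73. The EpiSC arrays also held Krt18 (8.05 and 8.31) and Krt8 (8.49 and 8.96), so these keratins were detected in the EpiSCs too. In the junction list Cldn4, a tight junction claudin, read 9.50, 11.46 and 11.66 (4.48-fold), whereas E-cadherin (Cdh1) differed by 0.11.

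In the endoderm list 9 of 13 detected members were over 2-fold higher and 1 lower, with a median of 1.71, or 0.90 with undetected sides at their bounds. All 13 were detected on D15-- and 8 of them on ESC--, so the rest were counted only through the day-15 array. Over all 25 members with a probe the median was 0.65. Apoe, a lipid carrier, was detected on both arrays and read 9.49, 11.76 and 11.55 (4.15-fold). Car4, a carbonic anhydrase of yolk sac and other epithelia, was not detected in ESCs and read 8.03 and 8.09 at days 12 and 15 (at least 5.23-fold). The visceral endoderm products Ttr, Afp and Apoa1 were detected at day 15 at 7.11, 6.54 and 6.60, which was at least 2.64-, 1.78- and 1.86-fold above the lowest detected ESC signal. Gata6, the regulator of primitive endoderm, read 6.74, 7.82 and 8.21 (2.76-fold), and Dab2, an endocytic adaptor of visceral endoderm, read 5.95, 7.54 and 7.86 (3.76-fold). On the wt arrays 2 of 12 detected members were over 2-fold higher at day 15 and 4 lower, against 17.7% and 15.7% of all genes detected in the wt pair. Car4 read 6.25, 8.46 and 6.07 in wt ESCs, day-12 and day-15 PGCs, and Ttr was detected in wt cells at day 12 only (6.46). Whether the endoderm transcripts came from the GFP-positive cells or from other cells in the sorted sample was not tested.

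Several actin and mechanical response genes were higher. Ccn2, a matricellular protein induced through YAP and TGF-beta, read 9.11 in Gcnf-deficient ESCs, 11.97 at day 12 and 13.48 at day 15 (20.7-fold), and its paralog Ccn1 read 6.06, 7.98 and 10.11 (16.6-fold). The other 2 probes of Ccn1 gave 4.45 and 4.06 on the log2 scale, against 4.05 for the probe used. Acta1, skeletal muscle actin, was not detected in ESCs and read 6.87 and 7.53 (at least 3.55-fold). Of 10 detected members of the list, 6 were over 2-fold higher and 0 lower, with a median of 1.48, or 0.80 at the bounds. The count of 0 lower holds for the probes used. Other probes of Acta2 gave -0.39, detected on both arrays, and -1.54, not detected at day 15. All 10 members were detected on D15-- and 7 of them on ESC--, and the median over the 16 members with a probe was 0.54. On the wt arrays 9 of 12 detected members of the list were over 2-fold lower, against 15.7% of all genes detected in the wt pair, among them Acta2, which read 13.15 in wt ESCs and was not detected at day 15. The wt ESC array also read higher than ESC-- for fibroblast genes such as Bgn and Mgp, and the part of fibroblast RNA in this difference was not tested.

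Immediate early genes were higher mainly at day 15. Fos read 9.59, 10.13 and 12.05 (5.49-fold) and Egr1 11.21, 11.63 and 13.62 (5.33-fold) in Gcnf-deficient ESCs, day-12 and day-15 PGCs. Both are transcription factors that serum, stress or cell dissociation induces rapidly. Of 12 detected members 6 were over 2-fold higher and 1 lower, with a median of 0.84. All 12 were detected on D15-- and 9 of them on ESC--, and the median over the 18 members with a probe was 0.65. The wt arrays had their highest Fos and Egr1 signals at day 12 (11.78 and 13.07), not at day 15 (8.33 and 9.48), so the high sample differed between genotypes. The PGCs were dissociated with trypsin and sorted, and the part of that handling in these values was not tested.

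**Figure D3:**
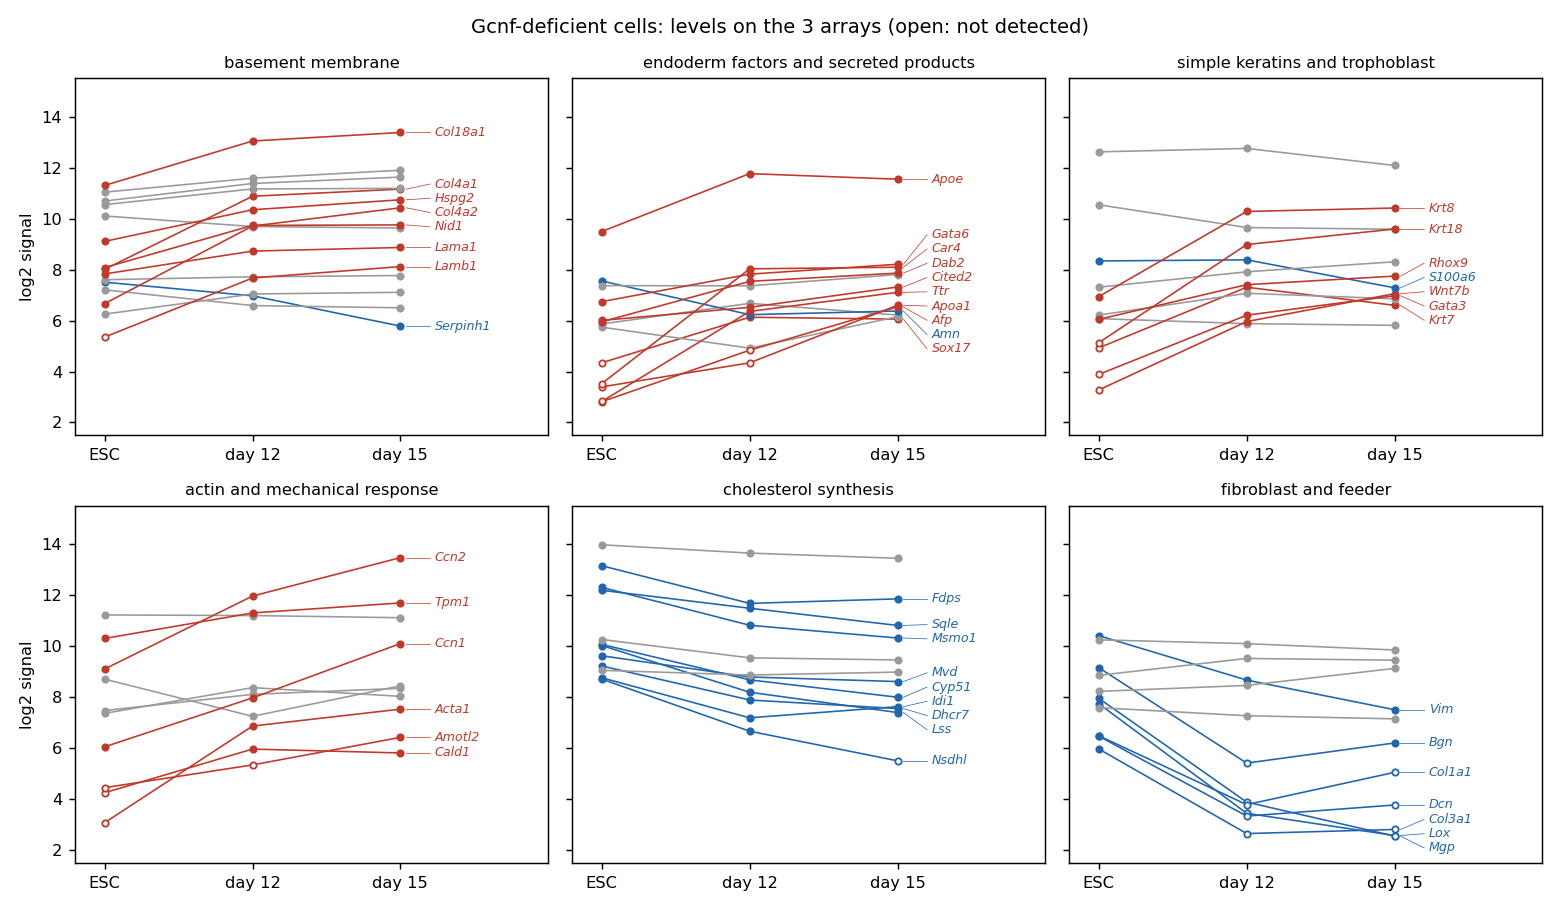
Log2 signal (y axis) of the detected members of 6 gene lists on the 3 Gcnf-deficient arrays (x axis: ESC, day 12, day 15); red lines are over 2-fold higher and blue lines over 2-fold lower at day 15 than in ESCs, grey lines are within 2-fold, and open circles were not detected. Col4a1 and Krt8 are already high at day 12, and Ccn1 and Ccn2 go on from day 12 to day 15. Over 2-fold lower at day 15 are 9 of 12 cholesterol and 7 of 11 fibroblast genes.

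On measured signals fibroblast transcripts had the lowest list median. With undetected sides at their bounds the cholesterol synthesis list was lower (-1.34 against -0.80). Mgp, matrix Gla protein, read 7.96 in Gcnf-deficient ESCs and was not detected at days 12 and 15 (at least 4.87-fold lower). Lox, the collagen crosslinking enzyme, read 7.74 and was not detected afterwards (at least 4.21-fold lower). Bgn, the proteoglycan biglycan, read 9.16, 5.42 (not detected) and 6.21 (7.74-fold lower), and Vim, the intermediate filament vimentin, read 10.42, 8.67 and 7.51 (7.5-fold lower). Of 11 detected members 7 were over 2-fold lower, 6 over 4-fold lower and 0 over 2-fold higher, against 7.74% and 1.38% of all detected genes. The list median was -2.70, or -0.80 with undetected sides at their bounds, and -1.38 over the 22 members with a probe.

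The ESCs were grown on embryonic fibroblasts and the PGC cultures were not, and this difference between the 2 arrays cannot be told apart from differentiation. All 11 of these members were detected on ESC-- and 6 on D15--, and Col1a1, Col3a1, Dcn, Lox and Mgp were not detected at day 15. The collagen IV signal at day 15 therefore stood beside Col1a1 and Col3a1 signals that were not detected. Col5a1 (8.23 to 9.13) and Fstl1 (8.86 to 9.45) were the members with positive differences, both within 2-fold. On the wt arrays the list had a median of -5.37 on measured signals over 17 detected members, with higher signals in wt ESCs (Mgp 11.33, Bgn 12.19). Mgp, Lox, Dcn and Col3a1 were not detected on the wt day-15 array. Of the 17 members, 15 had an unadjusted limma interaction p under 0.05, all with a positive estimate, against 3.17% of the 12717 probes tested. The lowest adjusted value in the list was 0.465. Only 11 of the 17 were detected in the Gcnf-deficient pair, and the others in the wt pair alone. All these estimates rest on the same wt ESC array, so the members are not replicates and their count is no test of the list.

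Cholesterol synthesis genes were lower together. Nsdhl, a sterol dehydrogenase, read 8.71 in Gcnf-deficient ESCs and 6.67 at day 12 and was not detected at day 15 (at least 8.23-fold lower). Its 3 other probes gave -2.29, -3.22 and -0.90. Lss, lanosterol synthase, read 10.03, 8.20 and 7.40 (6.19-fold lower), and Cyp51, lanosterol demethylase, read 10.07, 8.68 and 8.00 (4.21-fold lower). Hmgcs1, at the entry of the mevalonate pathway, read 13.98, 13.66 and 13.45, Fdps, which makes farnesyl diphosphate, read 13.16, 11.68 and 11.86, and Sqle, squalene epoxidase, read 12.20, 11.49 and 10.82. A second probe of Sqle, detected on both arrays, gave -2.04.

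Of the 12 detected members, 9 were over 2-fold lower and 0 higher, and all 12 differences were negative, from -3.21 to -0.07, with a median of -1.34. Srebf2, the transcription factor that controls the pathway, was the member at -0.07 (9.06, 8.87 and 8.99), and is named after its values were seen. Scd1, the desaturase of stearic acid and no member of the list, was lower as well (10.83, 9.40 and 8.19, 6.22-fold). On the wt arrays the list median was -0.24, with 2 of 13 detected members over 2-fold lower (15.7% of all genes), and 0 of 13 had an unadjusted interaction p under 0.05. The sterol element TCACNCCAC stood in 1 of the 10 promoter windows found for these genes, that of Hmgcs1, against 1.44% of all genes' windows. Serum was added and feeder cells were absent in the PGC cultures, and the part of the medium in this difference was not tested.

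A few signalling and cell cycle genes were lower. Bmp4, the ligand that induces PGCs in the epiblast, read 9.56 in Gcnf-deficient ESCs and 7.22 at day 12 and was not detected at day 15 (at least 14.8-fold lower). In wt cells Bmp4 read 10.79, 7.61 and 6.69. Etv4 and Spry4, a transcription factor and a feedback inhibitor induced by FGF signals, were 5.62-fold and 5.46-fold lower (10.63 to 8.14 and 8.38 to 5.93). Ccne1 and Ccne2, the E-type cyclins of entry into S phase, read 10.02, 8.33 and 7.98 (4.11-fold lower) and 7.82, 6.05 and not detected (at least 4.44-fold lower). In the cell cycle list 14 of 17 detected members stayed within 2-fold, 1 was over 2-fold higher (by 1.27 in log2), and the cyclin E pair made up the 2 that were lower. A probe of the list member Cdkn2a other than the one used, named after its values were seen, was detected on both arrays and gave 2.31. Mcm5, a subunit of the replicative helicase, was at -0.25, whereas the probes of its partner Mcm4 disagreed, at -0.20 for the probe used and -1.91 and -2.30 for the other 2, all detected on both arrays.

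Within the BMP, Nodal and activin list, several members were higher. Bmp4 was placed in the mesoderm list and is not counted here. Bmp7, a ligand related to Bmp4, read 5.74, 7.95 and 8.06 (5-fold). Lefty1, the Nodal antagonist, read 9.21, 10.85 and 11.64 (5.38-fold), and Id2, a target of BMP signals, was not detected in ESCs and read 7.49 and 7.72 (at least 4.03-fold). Of 11 detected members 5 were over 2-fold higher and 0 lower, with a median of 0.76. Gsc, a homeobox gene of the mesendoderm that answers to Nodal, was not detected in ESCs and read 7.41 and 7.97 at days 12 and 15 (at least 4.8-fold).

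Imprinted genes were higher in 7 of 13 detected members, over 2-fold, and lower in 1. Cdkn1c, a growth inhibitor expressed from the maternal allele, read 7.22, 9.48 and 10.04 (7.03-fold). Igf2, a fetal growth factor expressed from the paternal allele, read 9.96, 11.63 and 12.21 (4.77-fold). Dlk1, a paternally expressed Notch ligand homolog, was not detected in ESCs and read 7.08 at day 15 (at least 2.59-fold). Grb10, an inhibitor of insulin and IGF receptors, read 10.51, 7.96 and 7.80 (6.53-fold lower). Igf2 in wt cells read 12.87 in ESCs, 12.63 at day 12 and 8.02 at day 15, so that the day-15 array was the low one. Total signal does not separate the 2 alleles of an imprinted gene.

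In the p53 target list 5 of 12 detected members were over 2-fold higher and 0 lower, and the median was 0.87. Plk2, a stress-induced kinase, read 6.80, 7.74 and 9.04 (4.73-fold), and Mdm2, the ubiquitin ligase that restrains p53, read 11.33, 12.10 and 12.45 (2.18-fold). The other probes of Mdm2 gave 1.54 and -0.10. Glycolysis genes, by contrast, were level or slightly lower. Of 19 detected members, 16 lay within 2-fold and 3 (Aldoc, Hk2 and Pfkp, named because the count is small) were over 2-fold lower, with a median of -0.42. Aldoc read 10.51, 9.85 and 9.32.

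On the wt arrays 13 of 19 glycolysis members were over 2-fold higher at day 15, against 17.7% of all genes detected in the wt pair, with a median of 1.65. The Gcnf-deficient ESC array already held the higher signals: Aldoc read 10.51 there and 6.05 in wt ESCs, and Pygl, liver glycogen phosphorylase, read 8.13 there and was not detected in wt ESCs. Pygl differed by 0.50 in the Gcnf-deficient pair and by 7.17 in the wt pair, a difference of changes of -5.55 ± 1.28 (SE) with a limma adjusted p of 0.596. Of the 19 members 8 had an unadjusted interaction p under 0.05, all negative, against 2.85% of the probes tested, and the lowest adjusted p in the list was 0.55.

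The remaining lists held few detected members. Of the oocyte list 6 were detected, 0 over 2-fold higher and 1 lower, of the mesoderm list 4 (2 higher, 1 lower), and of the neuroectoderm list 5 (1 higher, 3 lower). The retinoic acid list had 3 detected members, 1 of which, the retinoid receptor Rxra, was higher (6.31, 8.47 and 8.76, 5.47-fold). Gonadal somatic cell genes were almost absent, with 2 detected of 17 with a probe. Of the 5 detected genes of the 2-cell-like list 0 passed 2-fold in either direction, of 8 DNA methylation genes 1 was higher, of 9 housekeeping genes 1 was lower, and of the Y-linked and X inactivation list 1 of 4 was detected and lay within 2-fold.

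**Figure D4:**
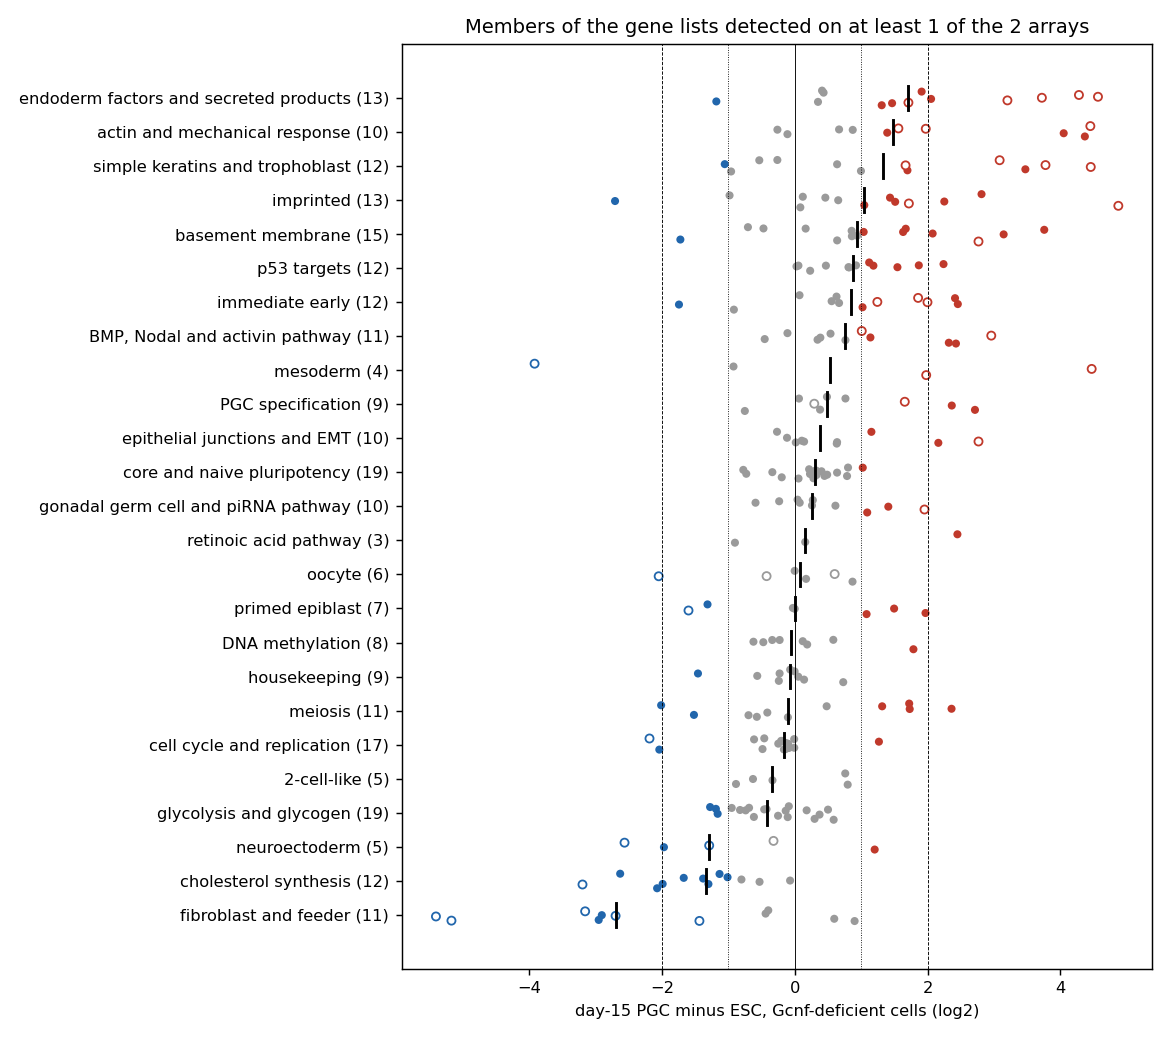
Each circle is 1 list member detected on at least 1 of the 2 Gcnf-deficient arrays, placed by its day-15 minus ESC difference (x axis, log2), with the number of detected members in brackets; filled circles were detected on both arrays and open ones on 1, red and blue circles are over 2-fold higher and lower, vertical bars are medians, and dotted and dashed lines mark 2-fold and 4-fold. Among the detected members shown, the endoderm list has the highest median (1.71, but 0.65 over all 25 members with a probe). Cholesterol synthesis (-1.34) and fibroblast (-2.70, but -0.80 with undetected sides at their bounds) have the lowest.

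The 20 largest differences on the higher side, ranked with undetected signals at their bounds, also held genes outside the lists. Pdzk1, a scaffold of membrane transporters, was not detected in ESCs and read 8.94 and 9.81 at days 12 and 15 (at least 17.2-fold), and it was high on the wt PGC arrays as well (10.42 and 10.47). Ccl25, a chemokine of thymus and gut, read 6.63, 10.08 and 10.69 (16.7-fold) and 6.37, 7.88 and 7.05 on the wt arrays. Dcxr, a carbonyl reductase, read 6.08, 9.68 and 9.58 (11.3-fold), Cd55, which protects cells from complement, read 6.03, 8.65 and 9.48, and Copz2, a coat protein of Golgi vesicles, read 8.19 in ESCs and 11.60 at day 15 (10.6-fold). On the lower side Stc2, a secreted stanniocalcin, read 8.83, 6.34 and 5.71 (8.7-fold lower), Plac8 read 10.60, 8.44 and 7.72 (7.37-fold lower), and Pclaf, a partner of the replication clamp PCNA, read 10.67, 8.70 and 7.95 (6.6-fold lower).

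All 20 genes at the top of the higher side had a day-12 signal above the ESC signal, and all 20 on the lower side a day-12 signal below it. The day-12 and day-15 differences share the ESC-- array, so this describes the levels on 3 arrays and is no second measurement of the ESC level.

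The wt ESCs and day-15 PGCs, on separate arrays, gave 409 genes over 4-fold higher (5%) and 367 over 4-fold lower (4.48%) of 8188 detected. Of the 354 Gcnf-deficient genes over 4-fold in either direction and the 776 wt genes, 137 were in both lists and went the same way, which is 38.7% of the Gcnf-deficient list and 17.7% of the wt list. Of these, 89 were higher and 48 lower at day 15. Dppa3, Smc1b, Ifitm1, Pdzk1 and Bmp7 were among the shared higher genes, and Bmp4, Etv4 and Vim among the shared lower ones. Another 7 genes were over 4-fold in both lists in opposite directions, 5 of them higher in the Gcnf-deficient cells (Cdkn2b, Ghr, Igf2, Pga5 and Spink1) and 2 lower (Stra8 and Mpp5), all named because the count is small.

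**Figure D5:**
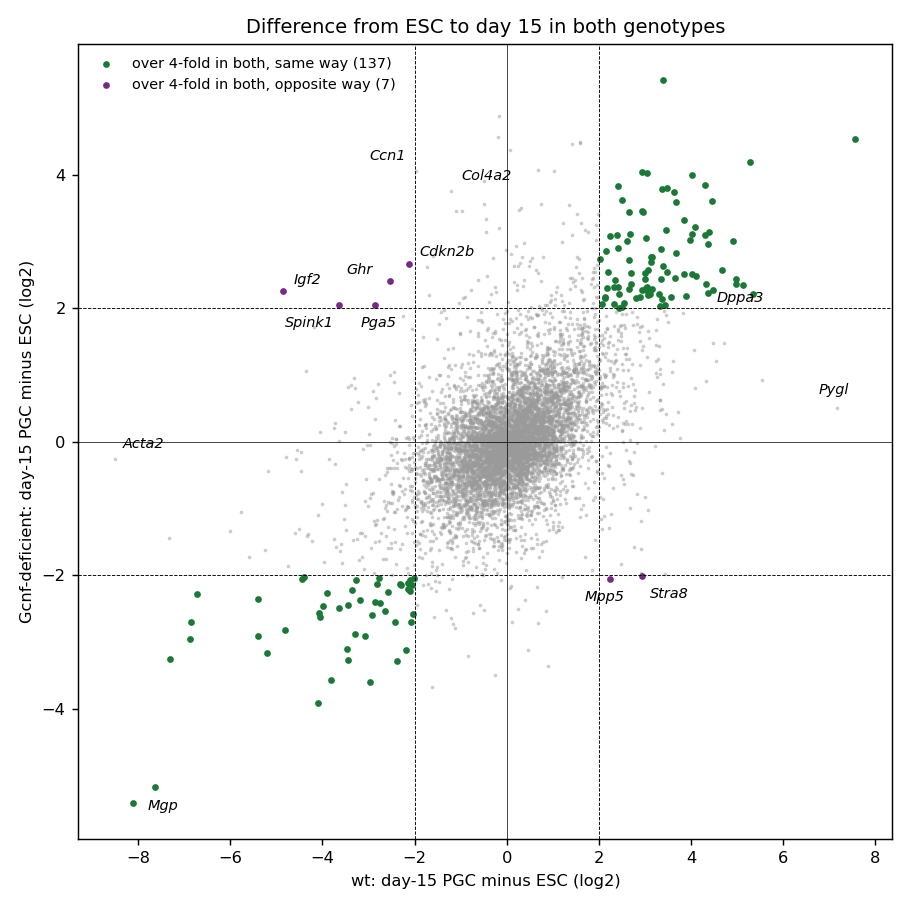
Day-15 PGC minus ESC difference (log2) on the wt arrays (x axis) and on the Gcnf-deficient arrays (y axis) for genes detected in both pairs; dashed lines mark 4-fold. The 137 genes over 4-fold the same way (green) lie in the upper right and lower left corners and the 7 opposite genes (purple) in the other corners, while Pygl and Acta2 are large on the wt axis only and Col4a2 and Ccn1 are over 4-fold higher on the Gcnf-deficient axis and lower, within 4-fold, on the wt axis.

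Whether the Gcnf-deficient change differed from the wt change was tested probe by probe with limma, with days 12 and 15 pooled as PGCs of each genotype and 2 residual degrees of freedom. Of 12717 probes detected on at least 1 of 6 arrays, 0 (0%) had a Benjamini-Hochberg adjusted p under 0.05 by limma, and the lowest adjusted p was 0.465. At an unadjusted p under 0.05 there were 766 probes, 403 (3.17%) with a more positive change in the Gcnf-deficient cells and 363 (2.85%) with a more negative one. The spread in this fit is the change from day 12 to day 15 and not that of repeated cultures. The largest negative estimates were those of Pygl (-5.55), Stra8 (-4.97) and Bhlhe40 (-4.91), and the largest positive ones those of Acta2 (5.75), Emp3 (5.65) and the fibroblast gene Ogn (5.46). Acta2, Emp3 and Ogn read 13.15, 7.74 and 9.58 in wt ESCs, and Emp3 and Ogn were not detected on any Gcnf-deficient array, so the estimates of Emp3 and Ogn rest on the wt arrays.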

How the data were processed

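RNA of 8 samples was amplified (300 ng input and 14 h of in vitro transcription, where possible) and hybridised to Illumina mouse bead arrays of 25697 probes, 1 array a sample. The authors summarised the bead intensity and the detection p-value of each probe with BeadStudio 3.2 and deposited both without normalization. They also deposited a normalized table of log2 values, used here as an alternative (correlation 0.998 with the values used). The columns of intensity were corrected with an RMA-type background model, quantile-normalized over the 8 arrays and set to log2 in R 4.3.3. No comparison columns of the authors were used. Platform annotation gave 1 symbol to 23978 probes and none to 1719, and the probe with the highest mean signal stood for a gene. The limit of a difference was 4-fold, and 2-fold for list counts. With 1 array a side the only test was the interaction of genotype with differentiation (limma 3.58.1, Benjamini-Hochberg adjusted p under 0.05). Nothing states that the EpiSC arrays came from separate cultures. Genes named were 5 markers, Nr6a1 and Pou5f1, the 20 largest differences each way, list members over 4-fold and up to 4 further members a list, and the 10 largest interaction estimates each way. The members and the 27 lists were chosen with earlier results of these data known. Other background corrections, normalizations, detection limits and fold limits were tried. Scripts were tested on simulated data. The number of arrays limits the precision.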

Additional observations from a re-analysis of the deposited data

Results flagged for a closer look

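For 6 genes the measured signals of the Gcnf-deficient and wt arrays went opposite ways between ESCs and day 15, by over 4-fold. The test of the difference between the changes did not pass (limma, Benjamini-Hochberg adjusted). At day 12 only the direction had to match, and some steps were small. Igf2 went from 12.87 to 12.63 in wt cells and Mpp5 from 5.95 to 5.82 (not detected) in Gcnf-deficient cells. All 6 genes were in the small set of 7 opposite genes, and Cdkn2b, Pga5 and Mpp5 are named after their values were seen. Stra8 had an interaction estimate of -4.97 (adjusted p 0.639) and Igf2 one of 4.51 (adjusted p 0.973), from the values given above. Cdkn2b, which encodes the cell cycle inhibitor p15, was not detected in Gcnf-deficient ESCs and read 7.54 and 7.91 at days 12 and 15 (at least 4.61-fold), against 8.73, 6.98 and 6.60 on the wt arrays, an estimate of 4.42 (adjusted p 0.465). Ghr, the growth hormone receptor, gave an estimate of 4.58 (adjusted p 0.465) but read only 5.80 at day 15, which is 1.07-fold above the lowest detected ESC signal. Pga5, a pepsinogen, gave 3.99 (adjusted p 0.77). It was at least 2.69-fold higher at day 15 in Gcnf-deficient cells and at least 3.55-fold lower in wt cells. Mpp5, a scaffold of epithelial polarity, gave -3.39 (adjusted p 0.756). It read 5.95 in Gcnf-deficient ESCs and was not detected at day 15 (at least 1.21-fold lower). In wt cells Mpp5 was at least 1.85-fold higher. The part of the ESC line in these differences was not tested, nor that of the higher signals of fibroblast genes such as Bgn and Mgp on the wt ESC array.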

How the results depend on the processing

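The scale of the background correction set the counts. The 333 higher and 172 lower probes became 182 and 58 with neqc, 58 and 20 with normexp at an offset of 50, and 31 and 8 without background correction, all of which add or leave a constant under every signal. A 2-fold limit gave 1219 and 1028, an 8-fold limit 96 and 26, and detection on both arrays 109 and 38, while 1 probe per gene left 109 lower. Other normalizations, the authors' table and other detection limits kept both counts within 1.5 times. The 137 genes shared with the wt pair became 68 with neqc, 25 with normexp, 7 without background correction and 670 at a 2-fold limit. Of 78 named genes over 4-fold, all 78 kept their direction under the 7 alternatives of correction and normalization, with 28 (no correction) to 77 of them still over 4-fold. Of 250 list medians 42 moved by more than 0.26, and 0 changed sign with both values beyond 0.26 in size. Smaller reversals occurred. The mesoderm median went from 0.53 to -0.21 with undetected sides at their bounds. The neuroectoderm median went from -1.29 to 0.26 without the detection filter. The interaction test called 0 probes in all settings run, also leaving out 1 PGC array in turn (0 to 0), and its smallest adjusted p ranged from 0.113, with the EpiSC pair as a further group, to 1.00. No paired analysis was possible because the groups compared share fewer than 2 replicate numbers. Signals near the lowest detected value, as for Nanos3, Ghr and Ddx4, have folds that rest on the background estimate.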

Other observations

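Several genes outside the lists, chosen after their values were seen, were higher at day 15 than in Gcnf-deficient ESCs. Ctsj, a cathepsin of the placenta, was not detected in ESCs or at day 12 and read 8.29 at day 15 (at least 6-fold), whereas on the wt arrays it was not detected in ESCs and read 8.35 and 6.69 at days 12 and 15. Myl3, a cardiac and slow muscle myosin light chain, was not detected in ESCs of either genotype and read 7.15 and 8.17 in Gcnf-deficient PGCs (at least 5.54-fold) and 7.50 and 8.25 in wt PGCs. The cardiac actin Actc1 was detected only on the Gcnf-deficient day-15 array, at 6.07 (at least 1.29-fold). Irs2, an adaptor of the insulin receptor, was not detected in ESCs of either genotype and read 7.68 and 8.25 in Gcnf-deficient PGCs (at least 5.83-fold), 6.84 and 6.69 in wt PGCs, and 9.40 and 9.51 in EpiSCs.

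Txnip, a glucose-responsive inhibitor of thioredoxin, read 10.52, 11.74 and 12.69 (4.49-fold) in Gcnf-deficient ESCs, day-12 and day-15 PGCs and 10.01, 11.27 and 13.57 on the wt arrays. The glutathione transferases Gstm1 and Gstm2 read 7.98, 9.72 and 10.34 (5.12-fold) and 8.85, 10.87 and 11.20 (5.07-fold), against 7.26, 10.31 and 9.95 and 8.93, 11.04 and 10.89 on the wt arrays. Of these 7 genes, Ctsj, Myl3, Irs2, Txnip and Gstm1 were over 4-fold higher at day 15 in both genotypes.

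On the lower side, Adm, the peptide hormone adrenomedullin, read 7.53 in ESCs and 6.00 at day 12 and was not detected at day 15 (at least 3.62-fold lower). Aldh1l2, a mitochondrial folate enzyme, read 6.68 in ESCs and was not detected at either PGC day (at least 2.01-fold lower). Etv1, an ETS factor related to Etv4, read 7.26 and was not detected afterwards (at least 3.01-fold lower), as on the wt arrays, where it read 7.16 in ESCs and was not detected in PGCs.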
